A study of Mus musculus with 6 samples.

Results

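Adrenoceptors, the kinases that phosphorylate them and the arrestins that bind them afterwards were examined in mouse stellate ganglia, the sympathetic ganglia of the upper chest that innervate the heart. The set comprised 9 genes: the adrenoceptors Adra1b, Adra2a, Adra2b, Adra2c and Adrb1, the receptor kinases Grk5 and Grk6, and the arrestins Arrb1 and Arrb2. Members were all probe sets for which the platform annotation gave exactly 1 gene symbol and that symbol was in the set. The rule found 13 of 45037 probe sets, which covered 6 of the 9 genes; Adra2a, Adra2b and Adrb1 had none under the rule and are not analysed here.

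All animals were male C57/Bl6 mice with no genetic change named. In the TAC group (transverse aortic constriction, a surgical narrowing of the aorta that loads the left ventricle) ganglia were taken 8 weeks after surgery, and the control group had a sham operation. There were 3 sham and 3 TAC arrays, each an Affymetrix GeneChip array of RNA from both ganglia of 1 animal, and lettered A, B and C in each group. The comparison asks how the ganglion's transcripts differ after lasting pressure overload of the heart.

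Noradrenaline released from sympathetic neurons acts on adrenoceptors, which signal through heterotrimeric G proteins. Alpha-2 receptors on the sympathetic neurons themselves act as autoreceptors that restrain further release. An activated receptor is phosphorylated by a G-protein-coupled receptor kinase, and arrestins then bind the phosphorylated receptor, uncouple it from its G protein and link it to the clathrin machinery that takes it into the cell.

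No member was called different between TAC and sham ganglia. Of the 13 member probe sets, 9 had a mean log2 intensity of at least 4 over all 6 arrays and were tested; they cover Adra2c, Grk5, Grk6, Arrb1 and Arrb2. The other 4 were dim, meaning that their mean lay under this floor, and the only probe set of Adra1b was among them. With limma and Benjamini-Hochberg adjustment, 0 of the 9 were called at an adjusted p under 0.05, as were 0.0% of all 17550 tested probe sets. At an unadjusted p under 0.05 there were also 0 of 9, against 9.08% of all tested probe sets. The members' adjusted p ran from 0.549 to 0.992. In such bulk samples fewer cells of a type and less RNA per cell cannot be told apart.

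The mean was lower in TAC for 7 of the 9 tested probe sets and higher for 2. Among all tested probe sets, 43.9% had a lower TAC mean. With each array centred on its median these figures were 8 of 9 and 54.6%, and with quantile normalization 8 of 9 and 52.7%. The probe set gained in both was that of Arrb1, which moved from 0.01 to -0.04 and -0.06. The count fell to 6 of 9 when sham C was dropped together with TAC B, and stayed at 7 when sham C alone was dropped. Over the 5 tested genes, each represented by its probe set of highest mean, the median log2 difference was -0.12, against 0.02 over 9955 tested genes. In 2 of the 9 probe sets every TAC array lay below every sham array, and 8.85% of all tested probe sets did so.

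The 95% intervals of the 9 differences lay between 0.606-fold and 1.85-fold, so each of them leaves out a 2-fold change in either direction. The spread of replicates around their group mean was 0.09 to 0.38 (pooled SD on the log2 scale), against a median of 0.15 over all tested probe sets, and 5 of the 9 lay below that median.

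**Figure D1:**
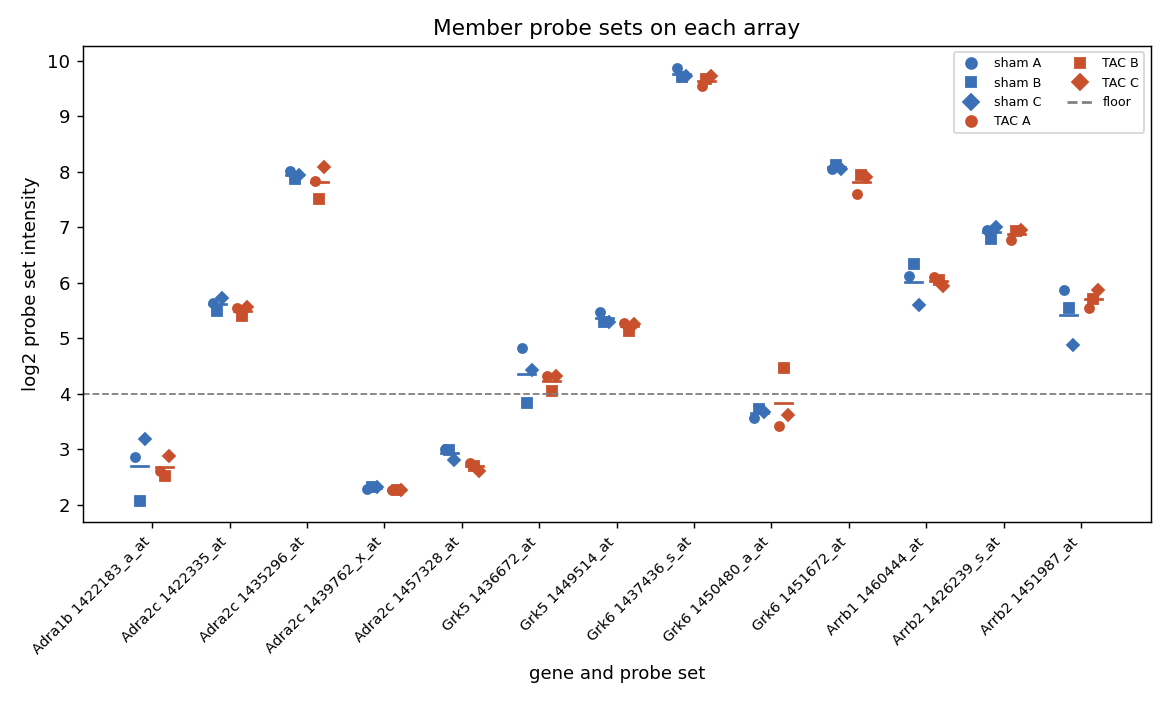
Log2 intensity (vertical axis) of each of the 13 member probe sets (horizontal axis) on the 3 sham (blue) and 3 TAC (orange) arrays. Short lines are group means, marker shapes give the array's letter, and the dashed line is the floor at a mean of 4. The levels of different probe sets are not comparable with each other. Sham and TAC points lie close together in most probe sets, and the widest scatter within a group is in Adra1b, Grk6 1450480_a_at, Arrb2 1451987_at and Grk5 1436672_at, at SDs of 0.57, 0.55, 0.51 and 0.50.

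Among the receptors, Adra2c was read above the floor by 2 of its 4 probe sets. It encodes the alpha-2C adrenoceptor, a receptor coupled to inhibitory G proteins that serves as an autoreceptor on sympathetic nerves. The brighter probe set, 1435296_at, measured 8.01, 7.88 and 7.95 in sham A, B and C and 7.84, 7.52 and 8.08 in TAC A, B and C (log2 intensity). The groups overlapped, since TAC C was the highest and TAC B the lowest of the 6 arrays. The means were 7.95 ± 0.07 in sham and 7.81 ± 0.28 in TAC (SD, n = 3), a log2 difference of -0.13 with a 95% interval of -0.49 to 0.23 (limma adjusted p = 0.764). That difference rested on TAC B, without which it was 0.01.

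Its second probe set, 1422335_at, measured 5.64, 5.49 and 5.73 in sham A, B and C and 5.55, 5.41 and 5.56 in TAC A, B and C. These groups overlapped too, and TAC B was again the lowest array. The log2 difference was -0.12 with an interval of -0.35 to 0.11 (limma adjusted p = 0.676). Both probe sets gave nearly the same difference, with intervals that include 0. The second was at -0.07 without sham C or without TAC B, and at -0.02 without both.

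The remaining 2 probe sets of Adra2c were dim, with means of 2.82 for 1457328_at and 2.29 for 1439762_x_at. For 1457328_at the sham arrays measured 3.01, 2.99 and 2.81 and the TAC arrays 2.76, 2.71 and 2.62. For 1439762_x_at all 3 TAC arrays measured 2.27 and the sham arrays 2.29 to 2.32. In both, every TAC array lay below every sham array, with log2 differences of -0.24 and -0.04 (limma fitted with no floor, adjusted p = 0.238 for each). Of all 27487 dim probe sets, 71.6% had TAC arrays wholly below sham arrays and 87.0% had a lower TAC mean. A separation by itself is thus what most dim probe sets show on these arrays. With quantile normalization the difference was -0.18 for 1457328_at and -0.01 for 1439762_x_at.

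Adra1b encodes the alpha-1B adrenoceptor, which couples to Gq and raises cell calcium. Its 1 probe set was dim on every array, at 2.86, 2.08 and 3.19 in sham A, B and C and 2.61, 2.52 and 2.89 in TAC A, B and C. The sham values span the TAC values, the difference was -0.03, and values this low do not separate a transcript from background.

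Of the 2 receptor kinases, Grk6 was read by 2 bright probe sets, and 1 of them gave the smallest p among the members. Grk5 and Grk6 belong to the membrane-associated subfamily of these kinases, which does not need free G protein beta-gamma subunits to reach the receptor. The Grk6 probe set 1451672_at measured 8.05, 8.12 and 8.06 in sham A, B and C and 7.61, 7.94 and 7.91 in TAC A, B and C. All TAC arrays lay below all sham arrays, with TAC A the lowest. The means were 8.08 ± 0.04 and 7.82 ± 0.18 (SD, n = 3), a log2 difference of -0.26 (SE 0.11), or 1.19-fold lower, with an interval of -0.51 to 0.00. It was not called (limma unadjusted p = 0.0519, adjusted p = 0.549), and the adjusted p was 0.238 to 0.824 over its 16 alternatives. The 0.238 came from the limma fit with no floor, and the next lowest was 0.375, with array weights. The exact permutation test over the arrays, two-sided, gave p = 0.1, the smallest that 3 against 3 allows. Without TAC A the difference was -0.15.

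A further Grk6 probe set, 1437436_s_at, measured 9.88, 9.71 and 9.72 in sham A, B and C and 9.55, 9.67 and 9.72 in TAC A, B and C. Here sham and TAC overlapped, with sham A the highest and TAC A the lowest array. The log2 difference was -0.12 with an interval of -0.34 to 0.09 (limma adjusted p = 0.657), and it was -0.07 without sham A and -0.08 without TAC A. The suffix _s_at marks probes that may also read other transcripts. The brightest probe sets of Arrb2, Grk3, Gng4 and Ap2a2, described below, carry it too.

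The third Grk6 probe set, 1450480_a_at, was dim, at 3.56, 3.72 and 3.67 on the sham arrays and 3.43, 4.47 and 3.62 in TAC A, B and C. TAC B alone rose over the floor, and the difference of 0.19 comes from that array. The probe sets of Grk6 thus agreed in direction only where they were bright.

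Grk5 was measured at lower intensities by 2 probe sets. The brighter one, 1449514_at, measured 5.47, 5.30 and 5.30 in sham A, B and C and 5.28, 5.13 and 5.26 in TAC A, B and C. All TAC values lay below all sham values, but the gap between the nearest arrays was small, at 5.28 against 5.30. The log2 difference was -0.13 with an interval of -0.34 to 0.08 (limma adjusted p = 0.642), and it was -0.07 without sham A. Over the alternatives its limma adjusted p was 0.246 to 0.840. The 0.246 came from the fit with no floor, and the next lowest was 0.544, with Ucp1 as a covariate.

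The dimmer Grk5 probe set, 1436672_at, measured 4.82, 3.84 and 4.43 in sham A, B and C and 4.33, 4.05 and 4.33 in TAC A, B and C. Sham A was the highest and sham B the lowest, so the sham arrays enclosed the TAC arrays. Its difference of -0.13 had an interval of -0.72 to 0.47 (limma adjusted p = 0.873), was -0.39 without sham B and 0.10 without sham A.

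**Figure D2:**
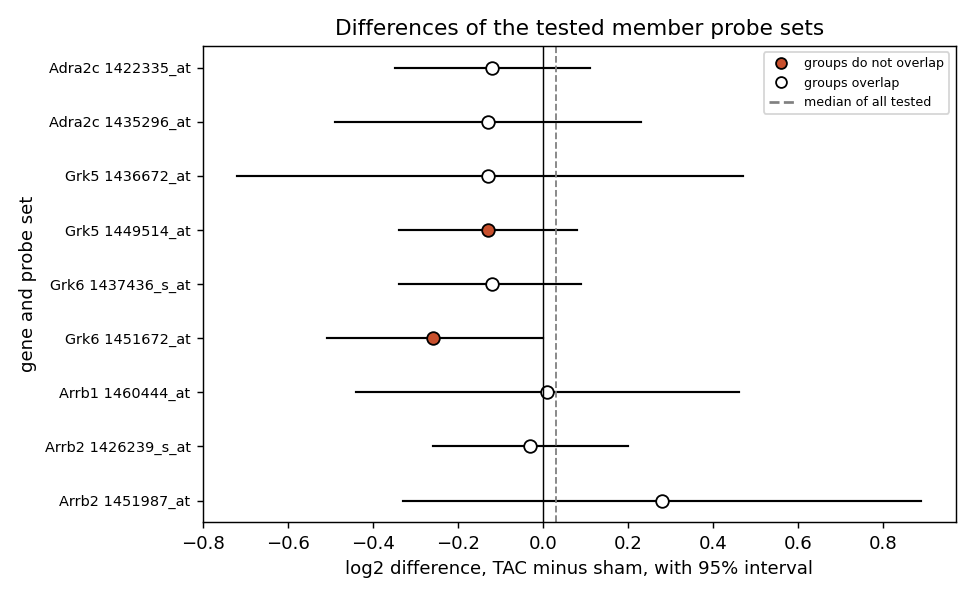
Log2 difference, TAC minus sham (horizontal axis), of the 9 tested member probe sets (vertical axis), with 95% intervals from limma. Filled points mark the 2 probe sets, of Grk5 and Grk6, whose groups do not overlap, and the dashed line is the median of all tested probe sets at 0.03. All intervals reach 0, that of Grk6 1451672_at only just, at -0.51 to 0.00.

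The arrestins showed no common direction. Arrb1 and Arrb2 encode beta-arrestin 1 and beta-arrestin 2, which serve most G-protein-coupled receptors outside the retina. Arrb1 measured 6.13, 6.34 and 5.61 in sham A, B and C and 6.10, 6.05 and 5.95 in TAC A, B and C (1460444_at). The sham values enclosed the TAC values, with sham C the lowest of the 6. The means were 6.02 ± 0.38 and 6.03 ± 0.07 (SD, n = 3), a difference of 0.01 with an interval of -0.44 to 0.46 (limma adjusted p = 0.992).

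Arrb2 was read by 2 probe sets that behaved unlike each other across the sham arrays. The brighter, 1426239_s_at, measured 6.96, 6.79 and 7.01 in sham A, B and C and 6.78, 6.94 and 6.95 in TAC A, B and C. This was the most even of the tested members, with a range of 0.22 over all 6 arrays, and its difference was -0.03 with an interval of -0.26 to 0.20 (limma adjusted p = 0.937). The other probe set, 1451987_at, measured 5.87, 5.55 and 4.88 in sham A, B and C and 5.55, 5.71 and 5.88 in TAC A, B and C. Sham C was the lowest array, and its 4.88 lies 0.67 below the next. The difference of 0.28 (interval -0.33 to 0.89, limma adjusted p = 0.708) was 0.00 without sham C and 0.50 without sham A. It was 0.49 with array weights and 0.15 with Ucp1 as a covariate. The array weights gave sham C more influence than sham A and B, at 1.7253 against 0.8681 and 0.6064.

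Arrb1 was likewise lowest on sham C, and without this array its difference was -0.20. Sham C also had the highest summed markers of brown fat, white fat and skeletal muscle. Its summed white fat markers were 565, against 90 to 311 on the other arrays, and its summed muscle markers 1717, against 90 to 871. Of the 5 measured white fat markers only Adipoq had a mean above the floor. It was at 9.01 on sham C, 8.04 on TAC B and 5.81 to 6.91 on the other arrays, so the white fat sum rests mainly on 1 gene. The summed intensity of the 6 measured brown fat markers was 1580 on sham C, 402 and 462 on sham A and B, and, in TAC A, B and C, 359, 739 and 388. Ucp1, whose product uncouples mitochondria in brown adipocytes and defines them, was at 8.53 in sham C and 6.82 in TAC B, and the other arrays lay between 3.60 and 4.64. TAC B, next highest in both fat sums, was at 6.05 for Arrb1 and 5.71 for Arrb2 1451987_at. Sham A, next highest in muscle, was at 6.13 and 5.87, so neither array was low in these 2 probe sets. Without sham C and TAC B, the difference of Arrb2 1451987_at was 0.00. The part of fat or muscle tissue in the arrestin values was not tested.

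**Figure D3:**
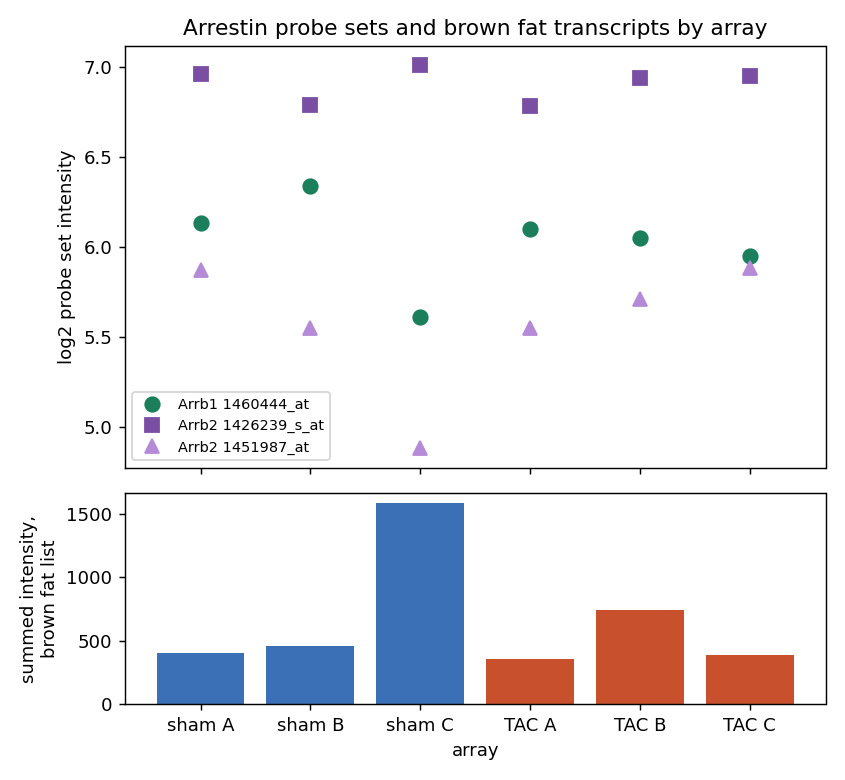
Upper panel, log2 intensity of the 3 arrestin probe sets on each array; lower panel, summed linear intensity of the brown fat markers on the same arrays (sham blue, TAC orange). Sham C has the lowest Arrb1 (5.61) and Arrb2 1451987_at (4.88) and the highest brown fat sum (1580), while Arrb2 1426239_s_at on sham C is the highest of the 6 (7.01). TAC B, with the next highest brown fat sum (739), is not low in Arrb1 (6.05) or Arrb2 1451987_at (5.71).

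A pair of contrasts asked whether related members changed unequally, using the difference between both genes on the same array, which does not depend on a shift shared by that array. Arrb1 minus Arrb2 was -0.84, -0.45 and -1.40 in sham A, B and C and -0.69, -0.90 and -1.0 in TAC A, B and C. The groups overlapped, and the change from sham to TAC was 0.03 (exact permutation test, two-sided, p = 1.0, adjusted over the 2 contrasts p = 1.0). Grk5 minus Grk6 was -4.40, -4.42 and -4.42 in sham A, B and C and -4.27, -4.53 and -4.46 in TAC A, B and C. Its sham values were nearly equal, at an SD of 0.01 against 0.13 in TAC, and the change was -0.01 (exact permutation test, two-sided, p = 1.0, adjusted p = 1.0). The sign of both small changes turned under some settings. A planned contrast of Adra2a with Adra2c was not run, since Adra2a is not analysed here.

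Because no member was called, the partners of these genes are given by lists of the same pathway. Of the other receptor kinases and adrenoceptors listed, 4 genes in all, 2 had a probe set and only Grk3 was tested. Grk3 encodes a kinase that is drawn to activated receptors by free beta-gamma subunits. Its brightest probe set, 1434450_s_at, measured 11.15, 10.98 and 11.12 in sham A, B and C and 11.33, 11.16 and 11.32 in TAC A, B and C. TAC lay above sham, by 0.01 at the nearest pair, and the log2 difference was 0.19 with an interval of -0.03 to 0.40 (limma adjusted p = 0.563). Its other probe sets were at 0.23 and -0.09. Both probe sets of Grk4 were dim, at means of 2.64 and 2.68.

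Of 22 tested genes for heterotrimeric G protein subunits, 0 were called, with 1 higher and 1 lower at an unadjusted limma p under 0.05, a share close to the 9.08% of all tested probe sets; the median difference was 0.00. The gamma subunit gene Gng4 was at 0.30 (unadjusted p = 0.0240) and at 0.61 in a second tested probe set. Gng10, another gamma subunit, was at -0.22 (unadjusted p = 0.0376). Gna11, an alpha subunit of the Gq class, was at -0.17 in its brightest probe set and at 0.30 in the other, which is a disagreement in direction between probe sets of 1 gene.

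For the clathrin coat, the AP2 adaptor and the dynamins, which carry arrestin-bound receptors into the cell, 0 of 11 genes were called, 1 was higher at an unadjusted limma p under 0.05, again close to the 9.08% of all tested probe sets, and the median was 0.09. The single gene was the adaptor subunit gene Ap2a2, at 0.29 (unadjusted p = 0.0237), with TAC arrays at 8.33 to 8.60 and sham arrays at 8.08 to 8.26. The dynamin genes Dnm3 and Dnm1, whose products pinch off the coated vesicle, were both at 0.15 (unadjusted p = 0.156 and 0.162).

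Among 6 tested genes for effectors at the membrane, 0 were called and 1 was higher at an unadjusted limma p under 0.05, with a median of -0.01. In a list of 6, a count of 1 is the smallest above 0, and over all tested probe sets the share was 9.08%. Plcb1, a phospholipase C activated by Gq, was at 0.24 (unadjusted p = 0.0482). Cacna1b, the pore subunit of the N-type calcium channel that alpha-2 receptors inhibit at nerve endings, was at -0.27 (unadjusted p = 0.152), and Plcb4 at 0.13 (unadjusted p = 0.242). None of these lists was tested as a set.

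**Figure D4:**
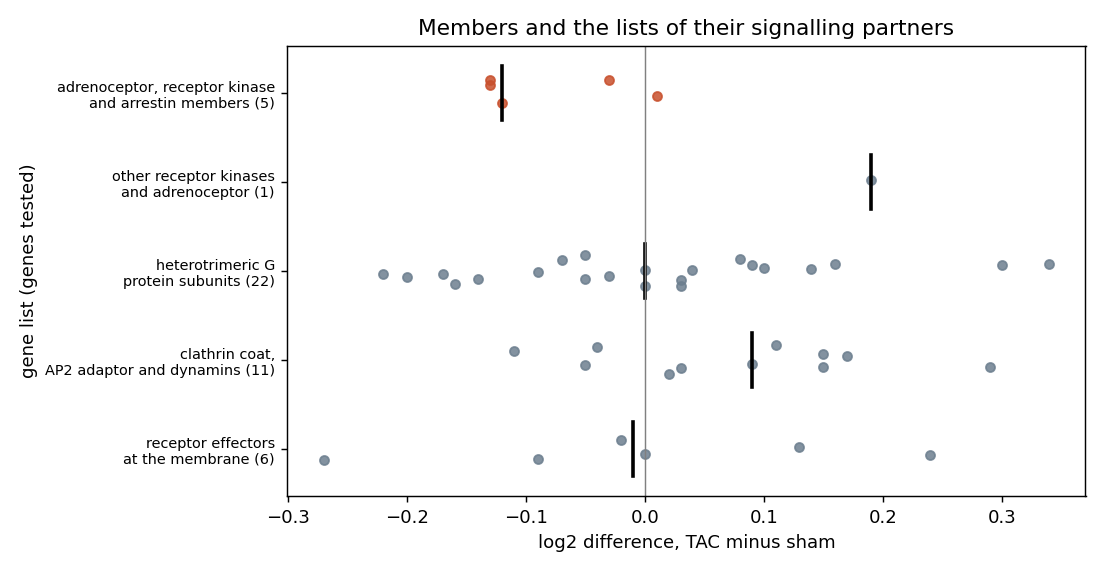
Log2 difference, TAC minus sham (horizontal axis), for each tested gene of the member set (orange) and of the 4 partner lists (grey), 1 point per gene at its probe set of highest mean; black bars are medians. Points are spread vertically only for visibility. The 5 member genes lie between -0.13 and 0.01 with a median of -0.12, and the medians of the partner lists are 0.19 for the single gene Grk3, 0.00, 0.09 and -0.01.

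By the rule for likeness, the Grk6 probe sets were the reference in both cases, 1451672_at for the smallest p and 1437436_s_at for the highest mean. Over the 6 arrays 1451672_at was most like Hemk1 (Pearson r = 0.982), Fam183b (0.981) and Sp100 (0.978). The probe set 1437436_s_at was most like Chst15 (0.990), Bbs1 (0.990) and Slc25a37 (0.989). By rank the likeness was weaker for Fam183b and Chst15, each at a Spearman rho of 0.771, while the other named genes were at 0.943 or more. With 6 points that share arrays and normalization, 50 and 58 genes passed an r of 0.9, and the 2 probe sets of 1 gene shared none of these leading names.

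The labelled tissue was borne out by its markers, since all 12 measured sympathetic neuron markers lay above the floor, with Th and Dbh at 13.55 to 13.97 on every array. Correlations between arrays were 0.980 to 0.994 over the tested probe sets. Summed neuron markers ranged from 97976 to 106718 in sham and from 112389 to 117578 in TAC. Of the markers in that sum Npy differed most, at 13.61 to 13.87 in sham and 14.38 to 14.65 in TAC on the log2 scale. Th and Slc18a2 were also higher on every TAC array, at 13.77 to 13.88 against 13.55 to 13.66 and 12.82 to 13.12 against 12.59 to 12.78. The other neuron markers overlapped between groups. Of 7 measured markers of satellite glia and Schwann cells, 6 lay above the floor, and their sum was 21965 to 24553 in sham and 16783 to 21730 in TAC, lowest on TAC B. That sum follows its brightest marker, Fabp7, at 13.80 to 14.08 in sham and 13.11 to 13.76 in TAC on the log2 scale. Sox10, Erbb3, Pmp22, S100b and Foxd3 overlapped between groups. S100b, at 8.82 to 9.20 in sham and 8.34 to 8.99 in TAC, and Foxd3 were lowest on TAC B, like Fabp7. Sox10, Erbb3 and Pmp22 were lowest on sham A. The median difference of the list was 0.0, against 0.04 for the neuron list. The adrenal chromaffin list, whose genes sympathetic neurons also express in part, summed to 6129 to 6413 and 7549 to 8545. That sum follows its brightest gene, Chgb, at 12.11 to 12.17 in sham and 12.47 to 12.69 in TAC on the log2 scale. Slc18a1 was also higher on every TAC array, while Chga, Penk and Pnmt overlapped, Pnmt at 5.85 to 6.05 and 5.95 to 6.01. Skeletal muscle transcripts ran from 90 to 1717 in sham and from 107 to 308 in TAC. Macrophage sums overlapped, at 1213 to 1360 and 1177 to 1273, as did those of endothelium, vessel muscle, fibroblasts, and brown and white fat. Red blood cell markers, of which 3 were measured, summed to 92 to 140 in sham and 36 to 86 in TAC. The tested Grk5 and Grk6 probe sets had lower TAC means, but none was called. The part of these sums in those means was not tested.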

How the data were processed

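The authors made the probe set intensities, deposited on a linear scale, with GCRMA, per the submitters' processing notes, and no source used here gives a version or settings for it. GCRMA corrects background by probe sequence and normalizes between arrays, and it compresses values near background. Intensities were log2-transformed with no offset. The 64 Affymetrix control probe sets and the 27487 with a mean log2 under 4 were left out, and 17550 were tested with limma 3.58.1 in R 4.3.3 (lmFit and eBayes, two-sided, 95% intervals, Benjamini-Hochberg over all tested). Dim members were fitted with no floor. A gene was represented by its tested probe set of highest mean. Symbols came from GEO's platform annotation, in which 34945 probe sets had 1 symbol, 932 several and 9160 none. The fit was tested on simulated data.

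The members, lists and alternatives were chosen with earlier results of these data known. Named were every member probe set, up to 3 genes of smallest unadjusted p from each partner list, and the 3 genes most like each of 2 member probe sets. Older symbols were updated through the RefSeq table of GRCm38.p6. Sequences were not used. Each array came from 1 animal, and precision is limited by how few arrays there were. Same-lettered sham and TAC arrays did not deviate together (r = 0.0841, -0.00308 and -0.166 for A, B and C), so the letter was not used as a pairing. Alternatives covered the floor, an offset of 16, array centring, quantile normalization, the variance model, array weights, the letter as a replicate block, arrays left out, and Ucp1 as a covariate, the last added after the values were seen. Figures were drawn with matplotlib 3.10.9.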

Additional observations from a re-analysis of the deposited data

How the results depend on the processing

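In all alternatives run, 0 member probe sets were called, and the median over member genes stayed below 0, at -0.17 with median centring to -0.05 with array weights or without TAC B. Over all probe sets limma called 0, with 1594 at an unadjusted p under 0.05, and 0 to 1 with 1 array left out (Mir670hg without TAC B, Sst without TAC C). With the letter as a replicate block the median was -0.12 and 0 were called; 1426 were under an unadjusted p of 0.05. Several differences changed sign in some settings, and the cause was not tested. Among them were those of Adra2c 1435296_at and Grk5 1436672_at, each -0.13 with all 6 arrays, close to the median over member genes of -0.12. Without sham C and TAC B together, Adra2c 1435296_at was at 0.02, Grk5 1436672_at at 0.00 and Arrb1 at -0.21. Arrb1 was at -0.04 with median centring, -0.06 with quantile normalization and -0.08 with Ucp1 as a covariate. With 1 array left out, Adra2c 1435296_at ran from -0.27 to 0.01, Grk5 1436672_at from -0.39 to 0.10, Arrb1 from -0.20 to 0.17 and Arrb2 1426239_s_at from -0.09 to 0.03. The Arrb1 minus Arrb2 contrast was -0.12 with the mean of all probe sets, -0.20 without sham C and TAC B, and -0.22 to 0.26 with 1 array left out. That of Grk5 minus Grk6 was 0.03 with the offset, 0.06 with the mean of all probe sets, 0.05 without sham C and TAC B, and -0.08 to 0.05 with 1 array left out. A floor of 6 left 5 member probe sets to test, of Adra2c, Grk6, Arrb1 and Arrb2. Probe sets under the floor carry too little signal over background for a fold.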

Other observations

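Relatives of the members that serve the retina gave values that belong in no comparison of the report, and were looked up after the annotation had been read. The visual arrestin genes Sag and Arr3 and the rhodopsin kinase gene Grk1 were all dim. Sag measured 3.78 to 4.08 over the 6 arrays, the 3 probe sets of Arr3 had means of 1.94, 2.80 and 2.47, and Grk1 measured 2.39 to 2.45.

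Probe sets of the dynamin and G protein genes other than the one of highest mean differed more than the latter in several cases, and were picked out after their values were seen. Dnm1 was at 0.40 in its second probe set (limma unadjusted p = 0.00293), and Dnm3 at 0.87 in a probe set with a mean of 4.97 (unadjusted p = 0.00514). Gng4 was at 0.61 in its second tested probe set (limma unadjusted p = 0.00578), and Gna11 at 0.30 in its second (unadjusted p = 0.00677). None of them was called, since 0 probe sets in all had an adjusted p under 0.05.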
